A study of Drosophila melanogaster with 18 samples.

Results

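The constructs described here were enhancers of Drosophila melanogaster in which the predicted Deaf1 sites, and no other class of sites, were mutated, each set against the wildtype version of the same enhancer. They were chosen by name, as every tag whose construct name ends in -D, with the -WT construct of the same enhancer beside it. This gave 37 of the 312 tags in the tables, in 10 of the 93 constructs, and the 10 matching wildtype constructs held 34 tags. The 10 enhancers were CBP2862, CG7759_33, ChIPCRM2000, ChIPCRM2497, ChIPCRM2613, ChIPCRM2847, ChIPCRM5405, ChIPCRM5432, ChIPCRM5857 and hth_3. Deaf1 site mutants of the other 2 enhancers of the library had no tag in the counts and could not be analysed.

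QeFS reads the activity of many integrated reporters at the same time, by sequencing a tag in the reporter transcript and the same tag in the genomic DNA of the same sorted cells. Male flies carrying a pool of reporter insertions were crossed to females carrying twi:CD2 or mef2[IE-D5]:CD2, transgenes that put the rat surface protein CD2 on the mesoderm or on fusion-competent myoblasts. Embryos were collected over 2.25 h and aged for 11 h at 18 °C, and cells were sorted by CD2 into twi:CD2+ cells (whole mesoderm, 3 collections) and mef2:CD2- cells (all cells left after the fusion-competent myoblasts were depleted, 6 collections over 2 weeks). Each collection gave 1 RNA and 1 DNA library. Mutant and wildtype constructs were carried by the same pool of embryos, at the same landing site and in the same libraries, so that the ratio of mutant to wildtype activity within a collection does not depend on the total of either library. The twi:CD2+ and mef2:CD2- collections were made on different days, so that population and day cannot be told apart. The tags report the reporter and no endogenous gene, so the purity of the sorted cells could not be checked here.

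Deaf1 is a broadly expressed transcription factor with a SAND domain, first described through its binding to the autoregulatory enhancer of the Hox gene Deformed. The SAND domain recognises a short core, TTCG, which is often found in clusters. Mutating the sites of a factor within an enhancer tests what those bases contribute to reporter activity and leaves the factor itself in place.

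The design was read from the sequences listed for the constructs, of which the copy used here was cut short and held only the first 385 bases of each enhancer, counted from 1 at the first base after the BmtI site. The enhancers are longer, and mutated sites beyond these bases were not analysed here, so the counts of substitutions that follow are not those of the whole design. Within these bases, the Deaf1 site mutants of the 10 enhancers differed from wildtype by 26 single-base substitutions, from 1 to 5 per enhancer, and in 20 of them a C became a G or a G became a C. All 26 fell inside a TCG on 1 of the strands, and 14 fell inside a TTCG. The TCG at that position was lost except at 1 of them, C325G in ChIPCRM5432, where a TCG still covered the changed base. A TCG on either strand was present in 12 of the 12 wildtype stretches of this length (100%) and a TTCG in 11 (91.7%), and between 5 and 17 TCG matches were found in the wildtype stretch of each of the 10 enhancers, so that most such matches were left as they were. The enhancers with the lowest mutant-to-wildtype ratios were CBP2862, upstream of fwd, a gene of a Golgi lipid kinase on chromosome 3L, and ChIPCRM2847, in an intron of the insulin receptor gene InR on chromosome 3R. For 2 sites of each enhancer, shown because these mutants had the largest decreases, 21 bases are given 5′ to 3′. Capitals mark the TCG or its reverse complement at the substitution in wildtype, and the same bases after mutation. The window at C38G in ChIPCRM2847 also holds an unmarked TTCG on the other strand, which the mutation left in place.
CBP2862 Deaf1 site mutant at C61G: aatgactaacGGAaacaaaga
CBP2862 wildtype at C61G: aatgactaacCGAaacaaaga
CBP2862 Deaf1 site mutant at C202G: gctctggttTGGttgcatttg
CBP2862 wildtype at C202G: gctctggttTCGttgcatttg
ChIPCRM2847 Deaf1 site mutant at C38G: agctgcgaaaGGAgagtttgt
ChIPCRM2847 wildtype at C38G: agctgcgaaaCGAgagtttgt
ChIPCRM2847 Deaf1 site mutant at C307T: caacagaaacTGAaacaaggg
ChIPCRM2847 wildtype at C307T: caacagaaacCGAaacaaggg

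The site at C61G in CBP2862 and the site at C307T in ChIPCRM2847 shared a stretch of 11 bases. It was present on either strand in 2 of the 12 wildtype stretches (16.7%). These 2 are the enhancers in which it was found, so the count could not be lower and is no evidence of a shared motif. CBP2862-D also carried G12C, G111C and G128A, and ChIPCRM2847-D also carried C194G. The other enhancers carried G119C and C294G in ChIPCRM2000, G21C and C36G in ChIPCRM2497, T381C in ChIPCRM2613, T309A and G385C in ChIPCRM5405, A192C, T335G and C355G beside C325G in ChIPCRM5432, C42G, G146C, C297G, G319C and G378C in ChIPCRM5857, G367C in CG7759_33 and C269G in hth_3. ChIPCRM5857, with as many substitutions in the listed bases as CBP2862, had all 5 of them inside a TTCG.

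Activity was the share of RNA UMIs on a tag divided by its share of DNA UMIs in the same collection, so that 1 is the average of the pool, and it was kept where the tag had at least 65 DNA UMIs. Such a value for 1 tag in 1 collection is called an observation, and constructs with fewer than 4 observations in a population were not compared. Of the 37 Deaf1 mutant tags, 31 passed the DNA minimum in at least 1 collection. The other 6 had at most 22 DNA UMIs in any library. The compared mutants had 80 observations (28 tags, 9 enhancers) in twi:CD2+ cells, while 164 came from mef2:CD2- cells (31 tags, 10 enhancers). ChIPCRM2000-D had 1 tag and only 3 observations in twi:CD2+ cells and was not compared there. The library totals were between 813922 and 1366066 RNA UMIs and between 317396 and 621449 DNA UMIs in twi:CD2+ cells, and between 560294 and 1201998 RNA UMIs and between 54038 and 248151 DNA UMIs in mef2:CD2- cells. The DNA count behind a Deaf1 mutant observation was accordingly larger in twi:CD2+ cells (median of 1613 UMIs) than in mef2:CD2- cells (median of 355 UMIs). The error also depended on the tags. Around the mean of its tag, log2 activity of the Deaf1 mutants varied over collections with an SD of 1.25 in twi:CD2+ and 0.83 in mef2:CD2- cells. The mean log2 activities of the tags of a mutant varied with an SD of 0.80 in twi:CD2+ and 0.44 in mef2:CD2- cells. Over all constructs of the library this SD was 0.81 in twi:CD2+ and 0.78 in mef2:CD2- cells. The SE in units of tags given below rests on these pooled values. In mef2:CD2- cells it is therefore wider than the Deaf1 mutant tags alone would give.

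Deaf1 site mutants were mostly less active than wildtype in both populations. The effect is given as the log2 of the mean activity of the mutant over the mean activity of wildtype. It was below 0 for 7 of 9 enhancers in twi:CD2+ cells, with a median of -1.07 and a range from -2.43 to 0.59. It was below 0 for 9 of 10 enhancers in mef2:CD2- cells, with a median of -0.60 and a range from -2.99 to 0.45. Over all mutants of the library, which include the Deaf1 mutants and combined mutants that hold Deaf1 site mutations, 51 of 67 effects were below 0 (median of -0.56) for twi:CD2+, and 49 of 72 (median of -0.32) for mef2:CD2-. The mutants of a single other motif had 12 of 20 effects below 0 in twi:CD2+ cells (median of -0.24), while in mef2:CD2- cells 9 of 20 were (median of 0.02).

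The mean rank of the observations of each mutant was set against that of its wildtype in a two-sided, exact permutation test, with Benjamini-Hochberg adjustment over all mutants of the population and a threshold of 0.1. CBP2862-D and ChIPCRM2847-D were called lower in twi:CD2+ cells, 2 of 9 Deaf1 mutants or 22.2%, where 13.4% of all 67 mutants were called lower and 16.4% were called in either direction. In mef2:CD2- cells the mutants of CBP2862, ChIPCRM2000, ChIPCRM2497, ChIPCRM2613, ChIPCRM2847, ChIPCRM5432 and ChIPCRM5857 were called lower, 7 of 10 or 70.0%, where 40.3% of all 72 mutants were called lower and 50.0% were called in either direction. No Deaf1 mutant was called higher, while 2.99% of all mutants were called higher in twi:CD2+ and 9.72% in mef2:CD2- cells. With the effects per collection as units, limma called the same 2 and 7 Deaf1 mutants. It called 17.9% of all mutants in twi:CD2+ cells, 16.4% lower and 1.49% higher, and in mef2:CD2- cells 50.0%, 38.9% lower and 11.1% higher. The rank test takes observations as its units although the same tags recur in every collection, so its p-values are too small as a statement on tags. The collection effects used by limma come from the same recurring tags, so its calls are no statement on tags either. In twi:CD2+ cells limma gave each Deaf1 mutant an SE of 0.58, while the SD of the collection effects ran from 0.25 to 1.81. With tag means as units, an exact permutation test called 0 of 9 Deaf1 mutants in twi:CD2+ cells, with 0 at an unadjusted p under 0.05. It called 0 of 10 in mef2:CD2- cells, with 1 at an unadjusted p under 0.05. It also called 0 of all 67 and 0 of all 72 mutants, with 2 and 6 at an unadjusted p under 0.05. Neither 3 tags against 3, as for ChIPCRM2847-D, nor 3 against 2, as for CBP2862-D, can reach this level.

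CBP2862-D and ChIPCRM2847-D had the largest decreases in both populations. Their order in twi:CD2+ cells was not settled, with effects of -2.43 for CBP2862-D and -2.42 for ChIPCRM2847-D, and of -2.21 and -2.44 when reads replaced UMIs. Its mean activity over tags in twi:CD2+ cells was 0.151, 0.327 and 0.0796 in replicates 1 to 3, against 1.20, 1.05 and 0.575 for wildtype. The mutant was lower in each of the 3 collections. It averaged 0.186 ± 0.238 (SD, n = 9 observations of 3 tags), against 1.01 ± 0.564 for wildtype (SD, n = 4 observations of 2 tags), an effect of -2.43 (adjusted p = 0.0281, exact permutation test). The observations overlapped through 1 value, since tag 3 of the mutant reached 0.808 in replicate 2, where it had 98 DNA UMIs, and every other mutant observation was between 0.0454 and 0.179.

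CBP2862-D had mean activities in mef2:CD2- cells of 0.0909, 0.159, 0.166, 0.147 and 0.155 in replicates 1, 2, 4, 5 and 6, against 0.511, 0.640, 2.44, 0.981 and 0.590 for wildtype. The highest of the 18 mutant observations, 0.233, was below the lowest of the 5 wildtype observations, 0.511, a separation found for 6.94% of all mutants in these cells. The effect was -2.99, or 0.126 times wildtype (adjusted p = 0.000238, exact permutation test). The tag means of the mutant ranged from 0.107 to 0.168 over 3 tags. The wildtype rested on 2 tags that were never measured in the same mef2:CD2- collection, tag 1 with 0.511 and 0.640 in replicates 1 and 2, and tag 2 with 2.44, 0.981 and 0.590 in replicates 4, 5 and 6. Without wildtype tag 2 the effect was -2.15, and without wildtype tag 1 it was -3.37 (adjusted p = 0.0158 and 0.00318, exact permutation tests). In units of tags the effect was -3.20 ± 0.74 (SE from the spread of tag means) in twi:CD2+ and -2.83 ± 0.71 in mef2:CD2- cells. The call in twi:CD2+ cells was lost without mutant tag 1 or without mutant tag 2, at effects of -2.27 and -2.04 (adjusted p = 0.106 in both, exact permutation tests).

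ChIPCRM2847-D, from the insulin receptor locus, was lower in 9 of 9 collections. Its mean activity in twi:CD2+ cells was 0.0451, 0.0512 and 0.0273 in replicates 1 to 3, against 0.160, 0.329 and 0.173 for wildtype. All 9 mutant observations, from 0.00591 to 0.0846, lay below all 9 wildtype observations, from 0.125 to 0.647, and 8.96% of all mutants in these cells were separated in this way. The effect was -2.42, or 0.187 times wildtype (adjusted p = 0.000689, exact permutation test). Leaving out any tag of either construct gave effects between -2.76 and -2.07, each with an adjusted p of 0.00268 (exact permutation test).

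ChIPCRM2847-D had mean activities in mef2:CD2- cells of 0.0405, 0.0390, 0.0254, 0.0645, 0.0768 and 0.0768 in replicates 1 to 6, against 0.176, 0.134, 0.265, 0.149, 0.307 and 0.309 for wildtype. No mutant collection mean reached the lowest wildtype collection mean, and how many of all mutants were separated in this way was not counted. The observations overlapped, with a highest mutant value of 0.167 from a tag with 142 DNA UMIs and a lowest wildtype value of 0.0544 from a tag with 138 DNA UMIs. The effect was -1.94 (adjusted p = 2.68e-05, exact permutation test) and ranged from -2.27 to -1.49 when any 1 tag was left out. In units of tags it was -2.55 ± 0.66 (SE) in twi:CD2+ and -1.99 ± 0.63 in mef2:CD2- cells. The lowest mutant observation, 0.00187 in replicate 3, rested on 4 RNA UMIs, and the collection effect was largest there, at -3.38.

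ChIPCRM2000-D was measured with 1 tag. Its activity in mef2:CD2- cells was 0.178, 0.0440, 0.0768, 0.114, 0.0445 and 0.0780 in replicates 1 to 6, against wildtype means of 0.154, 0.123, 0.0659, 0.719, 0.179 and 0.258. The mutant was higher in replicates 1 and 3 and lower in the other 4 collections, with an effect of -0.31 in week 1 and -2.29 in week 2. The effect over both weeks was -1.58 (adjusted p = 0.0852, exact permutation test), and the call was lost without replicate 2, 4, 5 or 6, where the adjusted p lay between 0.154 and 0.243 (effects from -1.60 to -0.98, exact permutation tests). Without the more active of the 2 wildtype tags it was lost as well (effect of -1.06, adjusted p = 0.331, exact permutation test). In units of tags the effect was -1.24 ± 0.95 (SE), within 2 SE of 0.

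ChIPCRM5432 was the most active of the enhancers, as mutant and as wildtype. In mef2:CD2- cells the mutant had mean activities of 4.67, 3.47, 2.28, 3.29, 3.99 and 4.22 in replicates 1 to 6, against 7.17, 5.32, 3.35, 7.83, 7.95 and 4.81 for wildtype. The mutant was lower in each of the 6 collections, and the ranges of the collection means overlapped. The effect was -0.77 (adjusted p = 0.0340, exact permutation test), and in units of tags it was -0.59 ± 0.59 (SE). This call depended on how the observations were taken. With a minimum of 20 DNA UMIs the effect was -0.03 (adjusted p = 0.145), and with reads in place of UMIs it was -2.59 (adjusted p = 0.0150, exact permutation tests). It was not called in week 1 alone (effect of -0.65, adjusted p = 0.129), in week 2 alone (effect of -0.79, adjusted p = 0.282) or with at least 200 DNA UMIs (effect of -0.69, adjusted p = 0.119, exact permutation tests). With the collection as replicate block the effect was -0.44 (adjusted p = 0.504, permutation test), and limma over the 6 collection effects gave -0.70 ± 0.20 (SE; adjusted p = 0.0162). The call was also lost without replicate 2 (effect of -0.79, adjusted p = 0.108) and without replicate 4 (effect of -0.64, adjusted p = 0.176), and without mutant tag 4 (effect of -0.61, adjusted p = 0.193) or wildtype tag 1 (effect of -0.56, adjusted p = 0.128, exact permutation tests). The block compares log2 values, on which 1 wildtype observation of 0.189 in replicate 6, from a tag with 972 RNA UMIs and 1063 DNA UMIs, lies far below the remaining 2.36 to 11.8.

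ChIPCRM5432-D had mean activities in twi:CD2+ cells of 3.41, 4.30 and 1.98, against 12.3, 6.32 and 2.89 for wildtype, and was again lower in each collection. The effect was -1.29 and was not called (adjusted p = 0.133, exact permutation test). It was called with reads in place of UMIs (effect of -1.09, adjusted p = 0.0966, exact permutation test) and with the t distribution and the adjustment within an enhancer that the study used (adjusted p = 0.0294, Conover-Iman test in place of the exact permutation test). The wildtype mean of replicate 1 held an activity of 26.0 from a tag with 72 DNA UMIs, near the minimum, while the other wildtype observations were between 1.95 and 6.72. Without this tag the effect was -0.60 (adjusted p = 0.197), without replicate 1 it was -0.55 (adjusted p = 0.671), and without replicate 3 it was -1.36 and called (adjusted p = 0.0793, exact permutation tests). These tags also had the highest RNA counts, up to 37515 UMIs in the mutant and 33251 UMIs in wildtype, which are 57.2% and 50.7% of the 65536 possible 8-base UMIs. Correcting both libraries for repeated use of a UMI, which was added with the data in view, moved the effect to -1.24 in twi:CD2+ and -0.83 in mef2:CD2- cells.

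ChIPCRM2497-D and ChIPCRM2613-D had small decreases that were called in mef2:CD2- cells. ChIPCRM2497-D had mean activities of 0.971, 0.848, 1.04, 1.03, 1.04 and 0.819 in replicates 1 to 6, against 1.26, 1.20, 1.29, 1.17, 1.61 and 1.28 for wildtype. All 6 mutant means lay below all 6 wildtype means, and how many of all mutants were separated in this way was not counted. The effect was -0.44 (adjusted p = 0.00240, exact permutation test), close in size in week 1 (-0.39) and week 2 (-0.49, adjusted p = 0.101 in week 2 alone), and it rested on 4 mutant tags and 2 wildtype tags. In units of tags it was -0.45 ± 0.67 (SE). ChIPCRM2497-D had mean activities in twi:CD2+ cells of 1.35, 1.34 and 1.37, against 1.64, 1.14 and 1.36 for wildtype, and the effect of -0.03 was not called (adjusted p = 0.642, exact permutation test).

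ChIPCRM2613-D had a larger decrease in week 1 than in week 2 of the mef2:CD2- collections. In week 1 its mean activities were 0.683, 0.636 and 0.491, against 1.19, 1.31 and 1.13 for wildtype, and the collection effects were -0.80, -1.04 and -1.20. In week 2 its mean activities were 0.763, 1.13 and 1.65, against 0.783, 1.21 and 1.81 for wildtype, and the collection effects were -0.04, -0.10 and -0.13. The mutant was below wildtype in all 6 collections, and the pooled effect of -0.45 was called (adjusted p = 0.0375, exact permutation test). In units of tags the pooled effect was -0.50 ± 0.59 (SE). In week 2 alone the effect was -0.09 and was not called (adjusted p = 0.757, exact permutation test), and the difference between the weeks was not tested. The call was also lost without replicate 1 (effect of -0.38, adjusted p = 0.131) and without replicate 2 (effect of -0.34, adjusted p = 0.161, exact permutation tests). Leaving out mutant tag 2 or wildtype tag 2 gave adjusted p-values of 0.136 and 0.116 (effects of -0.32 and -0.43, exact permutation tests). In twi:CD2+ cells the collection effects were -1.48, -0.43 and 0.14, and the effect of -0.65 was not called (adjusted p = 0.699, exact permutation test).

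ChIPCRM5857 was the least active enhancer in mef2:CD2- cells. Its Deaf1 mutant had mean activities of 0.0105, 0.00673, 0.0182, 0.0186, 0.00943 and 0.0252 in replicates 1 to 6, against 0.0182, 0.0169, 0.0215, 0.0266, 0.0340 and 0.0347 for wildtype. The mutant was lower in each collection and the 4 mutant tag means, from 0.0114 to 0.0156, lay below the 3 wildtype tag means, from 0.0200 to 0.0315. Separation was counted on the mean log2 activity of each tag. In these cells it was found for 5 of the 10 Deaf1 mutants and 29.2% of all mutants, with 36.1% in either direction. The 5 were those of CBP2862, ChIPCRM2000, ChIPCRM2497, ChIPCRM2847 and ChIPCRM5857. ChIPCRM2000-D had 1 tag, and the wildtypes of CBP2862, ChIPCRM2000 and ChIPCRM2497 had 2 tags, and fewer tags separate more easily. For twi:CD2+ the separation was found for 3 of 9 Deaf1 mutants, those of CBP2862, ChIPCRM2847 and ChIPCRM5432. It was found there for 29.9% of all mutants, with 32.8% in either direction. The effect of ChIPCRM5857-D in mef2:CD2- cells was -0.75 (adjusted p = 0.0340, exact permutation test) and rested on between 3 and 193 RNA UMIs per mutant observation. In units of tags it was -0.90 ± 0.59 (SE from the spread pooled over all constructs), within 2 SE of 0. The call was lost without replicate 5 (effect of -0.52, adjusted p = 0.262) and without wildtype tag 3 (effect of -0.56, adjusted p = 0.192, exact permutation tests). The call did not hold either when a Kruskal-Wallis test over the constructs of the enhancer had to pass first (p = 0.187, permutation test).

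ChIPCRM5857-D had mean activities in twi:CD2+ cells of 0.00774, 0.112 and 0.0598, against 0.0315, 0.0441 and 0.0342 for wildtype. The mutant was lower in replicate 1 and higher in replicates 2 and 3, with collection effects of -2.03, 1.34 and 0.81. Its 7 observations spanned 0.000355, which was 1 RNA UMI over 1282 DNA UMIs, to 0.117. The effect of 0.52 was not called (adjusted p = 0.924, exact permutation test), and the mean of log2 activities gave -0.30 in its place.

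The other 3 mutants were called in neither population. hth_3-D had mean activities of 1.28, 0.954 and 0.951 in twi:CD2+ cells, against 2.29, 1.29 and 3.08 for wildtype, and was lower in each collection. Its effect there was -1.07 (adjusted p = 0.197), and it was called without wildtype tag 2 (effect of -1.25, adjusted p = 0.0658), while without wildtype tag 3 the effect was -0.55 (adjusted p = 0.532, exact permutation tests). In mef2:CD2- cells it averaged 0.989 ± 0.350 (SD, n = 18), against 1.12 ± 0.385 for wildtype (SD, n = 18), with collection effects between -0.70 and 0.41 and an effect of -0.18 (adjusted p = 0.422, exact permutation test). In units of tags the interval of 2 SE ran from -1.45 to 1.09 in mef2:CD2- cells.

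ChIPCRM5405-D showed the widest range of collection effects among these 3. Its collection effects in mef2:CD2- cells were 0.41, 0.76, 0.27, 1.02, -1.55 and -0.84 in replicates 1 to 6. The last 2, the only ones below 0, were also those in which 1 mutant tag and 3 wildtype tags passed the DNA minimum. The effect was -0.04 (adjusted p = 0.967, exact permutation test), with an interval in units of tags from -1.11 to 1.43. In twi:CD2+ cells the collection effects were 0.09, 0.15 and -1.78, and the effect of -1.09 was not called (adjusted p = 0.361, exact permutation test). It was called without mutant tag 1 (effect of -2.44, adjusted p = 0.0677), while without wildtype tag 1 the effect was -0.22 (adjusted p = 0.745, exact permutation tests), the same as with at least 200 DNA UMIs. The wildtype tag means differed there by 7.57 times, from 0.161 to 1.22.

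CG7759_33-D was the only mutant with an effect above 0 in both populations. Its mean activities in mef2:CD2- cells were 0.623, 0.496, 0.441, 1.01, 0.664 and 1.79 in replicates 1 to 6, against 0.526, 0.391, 0.488, 0.551, 0.600 and 0.815 for wildtype. The mutant was higher in 5 of 6 collections, and the effect of 0.45 was not called (adjusted p = 0.371, exact permutation test). It rested on mutant tag 2, with a mean of 1.18, since the other mutant tags had means of 0.485 and 0.536, against 0.505 to 0.663 for the 4 wildtype tags, and without mutant tag 2 the effect was -0.12. In twi:CD2+ cells the collection effects were 1.54, 0.63 and -0.26, with an effect of 0.59 (adjusted p = 0.481, exact permutation test).

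Over all enhancers and collections, the mutant was below its wildtype in 18 of 27 comparisons for twi:CD2+ and in 46 of 59 for mef2:CD2-. The mutant was lower in every collection for 4 of 9 enhancers in twi:CD2+ cells, CBP2862, ChIPCRM2847, ChIPCRM5432 and hth_3, and 34.3% of all mutants were. In mef2:CD2- cells this held for 6 of 10 enhancers, CBP2862, ChIPCRM2497, ChIPCRM2613, ChIPCRM2847, ChIPCRM5432 and ChIPCRM5857, and for 33.3% of all mutants. No Deaf1 mutant was higher in every collection of a population. For all mutants, neither this count nor that of single comparisons below wildtype was made.

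The effects of each mutant in the 3 twi:CD2+ collections were compared with those in the mef2:CD2- collections. The study took mef2:CD2- cells as a proxy for the whole embryo, since the sort removed few cells. They still hold the mesoderm other than the fusion-competent myoblasts. Similar effects are therefore no statement that the loss of Deaf1 sites acts alike inside and outside the mesoderm. The sign of the effect was the same in both populations for 8 of 9 enhancers, and ChIPCRM5857 was the exception. Across these 9 enhancers the effects in the 2 populations had a Pearson's r of 0.763 and a Spearman's rho of 0.683, as a description of enhancers that share tags and insertions. None of the 9 differences passed limma with adjustment over 66 mutants (lowest adjusted p = 0.852, 0 at an unadjusted p under 0.05), where 3.03% of all mutants were called. An exact permutation test of the collections also called 0 of 9, with 1, ChIPCRM2497-D, at an unadjusted p under 0.05 (p = 0.0357). The difference, twi:CD2+ minus mef2:CD2-, was 0.10 ± 0.53 (SE) for CBP2862-D and -0.31 ± 0.47 for ChIPCRM2847-D. Its intervals of 2 SE, from -0.95 to 1.15 and from -1.25 to 0.63, still hold changes of more than 0.5 in either direction. The largest differences were 0.91 ± 0.65 for ChIPCRM5857-D and -0.83 ± 0.41 for hth_3-D (adjusted p = 0.968 and 0.852, limma). ChIPCRM2497-D, called in mef2:CD2- cells alone, had a difference of 0.43 ± 0.34 (adjusted p = 0.968, limma), so that neither test showed its effects to differ between populations after adjustment.

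The effect of losing Deaf1 sites had no clear relation to how active the wildtype enhancer was. Wildtype activity ranged from 0.0366 in ChIPCRM5857 to 7.90 in ChIPCRM5432 in twi:CD2+ cells, and the same enhancers had 0.0253 and 6.11 in mef2:CD2- cells. Across enhancers the effect and the log2 wildtype activity had a Pearson's r of -0.306 and a Spearman's rho of -0.233 in twi:CD2+ cells (9 enhancers). The values were 0.0546 and 0.176 in mef2:CD2- cells (10 enhancers). These values are descriptions only, because wildtype activity enters both axes. Against the wildtype activity measured in the other population, Spearman's rho was -0.0833 for twi:CD2+ effects and 0.0167 for mef2:CD2- effects (9 enhancers each). Within single twi:CD2+ collections Spearman's rho lay between -0.433 and -0.0333, and within single mef2:CD2- collections between -0.350 and 0.527. The sign thus changed with the collection in mef2:CD2- cells. In twi:CD2+ cells r turned to 0.183 when the 2 enhancers farthest from the median wildtype activity were left out.

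The order of the enhancers was largely kept in the mutants. Log2 mutant activity followed log2 wildtype activity with a Spearman's rho of 0.867 in twi:CD2+ and 0.927 in mef2:CD2- cells. ChIPCRM5432-D was the most active mutant in both populations, at 3.23 in twi:CD2+ and 3.58 in mef2:CD2- cells. hth_3-D, ChIPCRM2497-D and ChIPCRM2613-D followed in mef2:CD2- cells with means between 0.924 and 0.989, which differ by less than the spread of each over collections (SD of 0.134 for hth_3-D and 0.428 for ChIPCRM2613-D). CBP2862-D left this order, since its wildtype averaged 1.03 in mef2:CD2- cells, close to hth_3 (1.12) and ChIPCRM2613 (1.27), while the mutant averaged 0.130, below ChIPCRM5405-D (0.264). The least active mutants were ChIPCRM2847-D in twi:CD2+ cells, at 0.0412, and ChIPCRM5857-D in mef2:CD2- cells, at 0.0150.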

How the data were processed

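The authors read a UMI from the first 8 bases, trimmed constant sequence with cutadapt 1.14, aligned tags with Bowtie and deposited, for each of 18 libraries, counts of UMIs and of reads per tag, not normalized. R 3.5.1 is also named in the submitters' processing notes. Activity, its DNA minimum of 65 UMIs and the 4-observation minimum were set after the study's methods, with 2 differences. The methods word the DNA minimum as read counts, and it was applied here to UMIs, since the study's own list of filtered tags holds none with fewer DNA UMIs. They require 4 tags per construct in a week, and here 4 observations were required over all collections of a population. In mef2:CD2- cells ChIPCRM2000-D had 3 observations in each week, and CBP2862-WT had 2 in week 1 and 3 in week 2. With 4 observations required in each week, neither enhancer would have been compared there. The study had no QeFS value for ChIPCRM2000-D and measured it by RT-qPCR. UMI counts were used for all main values, and tags absent from an RNA library were left out, 1 observation of a Deaf1 mutant in each population. Every -D construct and its wildtype are named, and other constructs appear only as counts, medians and ranges. The members and lists were chosen with earlier results of these data known.

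All mutants of a population entered each test. Ranks were taken over the constructs of an enhancer and permuted exactly, where the study's Conover-Iman test uses a t distribution. The SE in units of tags pooled the spread of tag means over all constructs. Effects per collection were compared between populations with limma 3.58.1 in R 4.3.3. Mutant and wildtype tags come from the same libraries, so the collection pairs them, and a fit with the collection as replicate block (100000 permutations) was an alternative. Nothing in the labels says how the collections relate as biological replicates beyond their days. The p-values of the rank and block tests measure the spread over observations, and those of tag means the spread between tags. Those of limma and of the permuted collections measure the spread between these collections. The alternatives changed the DNA minimum, the unit (reads, tags or collections), the scaling, the weeks or replicates included, the adjustment and the averaging. Other calculations used Python 3.11.15, numpy 2.4.6, pandas 2.3.3 and scipy 1.17.1 and were tested on simulated data. Sequences came from the list of synthesised constructs in the study's supplement, and chromosomes from RefSeq annotation of the genes named by the study. Coordinates of the enhancers are not given, as no genome was used here.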

Additional observations from a re-analysis of the deposited data

Results flagged for a closer look

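Of 30 sets of 5 or 6 mef2:CD2- collection values tested, 4 held a collection far from the others. The rule used flags about 1 in 20 sets of normal values. The sets were log2 effects and the mutant and wildtype means behind them, so they were not independent. All 4 were means of activity, which need not be normal, so the count is not an excess over that rate. CBP2862-D had a mean activity of 0.0909 in replicate 1, against 0.147 to 0.166 in the other 4 collections. CBP2862-WT had 2.44 in replicate 4, against 0.511 to 0.981 in the others, and the collection effect of -3.88 there is the largest of this enhancer. ChIPCRM2000-WT also stood apart in replicate 4, at 0.719 against 0.0659 to 0.258, and without this replicate ChIPCRM2000-D was not called (effect of -0.98, adjusted p = 0.199, exact permutation test). ChIPCRM2497-WT had 1.61 in replicate 5, against 1.17 to 1.29, and ChIPCRM2497-D remained called without it.

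A ChIPCRM5432-D tag outside the comparison in twi:CD2+ cells had between 4 and 8 DNA UMIs in the 3 collections and up to 6427 RNA UMIs, at least 4059. Its activity would be between 163 and 731, where the mutant observations that were kept reached 6.94, and its own mef2:CD2- values with enough DNA were 2.58 and 7.23. A wildtype tag of ChIPCRM5432 was alike in 2 of these collections, with 3 to 5 DNA UMIs, 2249 to 2502 RNA UMIs and an activity between 193 and 290. ChIPCRM2000-D, too thinly covered to be compared in twi:CD2+ cells, had between 59 and 148 RNA UMIs there, with activities of 0.0120, 0.0528 and 0.0898 in replicates 1 to 3, against wildtype means of 0.0770, 0.0629 and 0.269. The mutant was lower in each of these 3 collections, by -2.68, -0.25 and -1.58 on the log2 scale, and with no minimum of observations the effect of -1.31 was not called (adjusted p = 0.674, exact permutation test).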

How the results depend on the processing

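CBP2862-D and ChIPCRM2847-D were lower under every alternative in which they could be compared, with effects from -3.37 to -1.49. With tag means as units neither could be called, since 3 tags against 2 or 3 cannot reach an unadjusted p under the threshold of 0.1. The counts of 0 with tag means given next therefore say nothing on these mutants. Otherwise a call was lost only for CBP2862-D in twi:CD2+ cells, with 1 tag left out. In mef2:CD2- cells, 7 called mutants of 10 became 4 of 8 with at least 200 DNA UMIs (CBP2862 and ChIPCRM5405 could not be compared), 3 of 8 in week 1 alone, 2 of 8 in week 2 alone (CBP2862 and ChIPCRM2000 could not be compared), 0 with tag means, and 4 to 7 when a replicate was left out. In twi:CD2+ cells, 2 became 3 with reads and 3 with the t distribution and adjustment of the study (ChIPCRM5432-D gained), 0 with tag means, 1 with only collections that held at least 2 tags of both constructs, and 1 to 2 without a replicate, where CBP2862-WT had too few observations to be compared. With the replicate block 2 and 6 mutants were called, and ChIPCRM5432-D in mef2:CD2- cells was the only call it changed.

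Signs turned only for mutants that were not called. ChIPCRM5405-D in mef2:CD2- cells (-0.04) was at 0.35 with 20 DNA UMIs, 0.09 with reads, 0.03 with median-of-ratios scaling, 0.52 in week 1, 0.16 with tag means, 0.18 with the block, 0.01 with limma, 0.05 with mean log2 values, 0.11 with summed UMIs, 0.65 with at least 2 tags of both constructs, up to 0.31 with a tag left out, and from -0.26 to 0.22 with a replicate left out. In twi:CD2+ cells it was at 0.16 with summed UMIs. ChIPCRM5857-D in twi:CD2+ cells was at -0.46 with tag means, -0.12 with the block, -0.30 with mean log2 values and from -0.20 to 1.13 without a replicate. ChIPCRM2497-D there ranged from -0.14 to 0.11 without a replicate and from -0.16 to 0.06 without a tag, and CG7759_33-D in mef2:CD2- cells ranged from -0.12 to 0.69 without a tag. The cause was not tested. Spearman's rho with wildtype activity in twi:CD2+ cells was 0.179 without the 2 farthest enhancers.

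Few tags and, in mef2:CD2- cells, low DNA counts limit these comparisons. In twi:CD2+ cells there were only 3 collections. The values of a Deaf1 mutant tag also varied more over collections there (SD of 1.25 on the log2 scale, against 0.83 in mef2:CD2- cells). The UMI correction, the tags left out and the minimum of 2 tags were chosen after seeing the data.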
